A study of Mus musculus with 8 samples.

Results

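Aquaporins are membrane channels for water and, in some members, for glycerol and urea. The RNA of 9 mouse aquaporin genes (Aqp1, Aqp2, Aqp3, Aqp4, Aqp6, Aqp7, Aqp8, Aqp9 and Aqp11) was followed across brain, heart, kidney and liver. They were taken by gene symbol from a deposited table of 27179 genes, which holds 12 aquaporin genes in all. The other 3 (Mip, Aqp5 and Aqp12) are given at the end. Total RNA was sequenced from mouse organs that had been flash frozen, or put into 10% formalin and then into paraffin blocks (FFPE tissue, as hospital pathology stores it). Each of the 4 organs gave 1 frozen and 1 FFPE library, 8 in all. Every library came from RNA isolated with Trizol and sheared for 6 min in a PIXUL sonicator, and FFPE tissue was deparaffinised before that. For the mice, the labels give no strain, sex or age, and neither the number of animals behind a library nor the piece of organ taken.

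An aquaporin sits in the membrane as a tetramer in which every subunit has its own pore, and water crosses along the osmotic gradient. Aqp1, Aqp2, Aqp4, Aqp6 and Aqp8 belong to the water channels of the classical kind. Aqp3, Aqp7 and Aqp9 are aquaglyceroporins, which also pass glycerol, and Aqp11 is a distant member found in membranes inside the cell. In kidney, water is taken back through AQP1 in the proximal tubule and the descending thin limb. In the collecting duct it enters principal cells through AQP2, which vasopressin brings to the apical membrane, and leaves through AQP3 and AQP4 on the basolateral side. AQP4 is also the channel of astrocyte endfeet around brain vessels, and AQP9 takes up glycerol into hepatocytes for glucose synthesis.

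The 5 genes whose RNA was almost confined to a single organ in these libraries have the following sequences in the 250 bases before their RefSeq transcription start (build GRCm38.p6, which is mm10; of 2 starts listed for Aqp9, one is shown). Aqp2 (chr15:99578806-99579055, plus strand), Aqp6 (chr15:99600950-99601199, plus strand) and Aqp3 (chr4:41098184-41098433, minus strand) were high in kidney. Aqp8 (chr7:123462044-123462293, plus strand) and Aqp9 (chr9:71163290-71163539, minus strand) were high in liver. Each sequence is written 5′ to 3′ on the strand of its gene, and capitals mark matches to 1 of 5 short motifs searched on both strands: TATAAA (the TATA box), TGACG (the core of the cAMP response element), the full form of that element, TGACGTCA, which holds the core within it, the E-box CACGTG bound by basic helix-loop-helix proteins, and the CCAAT box.
Aqp2: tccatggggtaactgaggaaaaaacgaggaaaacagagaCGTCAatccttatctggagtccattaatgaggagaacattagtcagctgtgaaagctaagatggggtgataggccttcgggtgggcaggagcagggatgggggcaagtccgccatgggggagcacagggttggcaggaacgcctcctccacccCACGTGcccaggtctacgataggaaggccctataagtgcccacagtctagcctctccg
Aqp6: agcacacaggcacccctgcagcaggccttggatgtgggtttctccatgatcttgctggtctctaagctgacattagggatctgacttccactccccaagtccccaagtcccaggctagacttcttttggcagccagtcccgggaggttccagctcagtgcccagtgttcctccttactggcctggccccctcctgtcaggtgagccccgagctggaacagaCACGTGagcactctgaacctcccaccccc
Aqp3: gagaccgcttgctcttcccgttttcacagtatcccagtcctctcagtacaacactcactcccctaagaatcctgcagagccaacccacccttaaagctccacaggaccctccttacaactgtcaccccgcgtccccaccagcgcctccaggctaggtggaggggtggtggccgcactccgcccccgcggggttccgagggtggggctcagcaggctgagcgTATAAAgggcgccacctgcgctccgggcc
Aqp8: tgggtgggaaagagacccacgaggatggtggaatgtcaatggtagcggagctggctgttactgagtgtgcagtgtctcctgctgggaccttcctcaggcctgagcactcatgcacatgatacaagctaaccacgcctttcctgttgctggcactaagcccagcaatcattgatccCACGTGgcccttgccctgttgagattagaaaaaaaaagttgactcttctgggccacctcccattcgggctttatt
Aqp9: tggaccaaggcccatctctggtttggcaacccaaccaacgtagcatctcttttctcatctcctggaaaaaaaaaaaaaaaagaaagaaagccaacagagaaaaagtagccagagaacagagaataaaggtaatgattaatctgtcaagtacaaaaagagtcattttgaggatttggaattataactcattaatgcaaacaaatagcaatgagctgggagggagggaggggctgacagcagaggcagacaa

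CACGTG stood before Aqp2, Aqp6 and Aqp8, with its first base 58, 29 and 75 bases before the start. It occurs in 6.02% of all 32851 RefSeq promoter windows of the same length. The kidney gene Aqp3 had TATAAA 29 bases before its start, a motif of 12.4% of all windows. Aqp2 held TGACG on the opposite strand, 211 bases before the start as counted along the gene, and 17.8% of all windows hold that core. None of these windows held CCAAT or the full TGACGTCA, which are in 33.8% and 1.55% of all windows. The Aqp9 window shown had none of the 5 motifs and a GC content of 40.4%, beside 55.6% for Aqp2, 64% for Aqp3 and a median of 52.4% over all windows. These are letter matches, not sites of binding, and CACGTG stood before genes of both organs. In all, 10 windows of 8 members were searched. The windows of Aqp1, Aqp7 and Aqp11 and the other Aqp9 window held none of the 5 motifs.

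Aqp2 and Aqp6 lie 16852 bases apart on the plus strand, with Aqp5 between them. Aqp2 spans chr15:99579055-99584547 and Aqp6 chr15:99601400-99605477 (GENCODE M21, mm10). Aqp5 starts 6234 bases after Aqp2 ends and had at most 10 reads in any library, so the 2 kidney genes flank a gene that was close to silent in all 4 organs. Aqp7 (chr4:41033074-41048139) and Aqp3 (chr4:41092722-41098183) are 44582 bases apart on the minus strand. Aqp7 was also present in heart, where Aqp3 had 1 read or none. No exon of a member overlaps an exon of another annotated gene.

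Library depth ran from 10180972 assigned reads in FFPE brain to 20526813 in frozen heart. Marker genes listed for this work were set beside the organ labels. Called higher in their organ were 8 of 8 neuron genes in brain, 8 of 8 heart muscle genes in heart, 12 of 12 proximal tubule genes in kidney and 8 of 8 hepatocyte genes in liver. Of all genes tested, 34.7%, 21.5%, 20.3% and 27.3% were called higher in brain, heart, kidney and liver. The lists were chosen with earlier results of these data known. Markers confined to an organ were bound to be called there, so these counts describe the labels and do not test them. Levels are given in counts per 1e+06 reads (CPM) on the authors' scaled library sizes. Where a gene had no read, 3 reads were taken as its upper limit, which is 0.119 CPM in frozen brain and up to 0.292 CPM, in frozen heart, elsewhere. A bulk library cannot tell fewer cells of a type from less RNA per cell.

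Each organ had its own aquaporin make-up, which both preparations shared in its leading genes. Compared per kilobase of exon, which allows levels of different genes to be set side by side, Aqp4 made up 96.1% of the RNA of the 9 genes in frozen brain and 92.5% in FFPE brain. In heart Aqp1 held 88.9% and 89.0%, and Aqp7 most of the rest with 9.25% and 9.73%. Liver was shared by Aqp9 (44.0% and 44.8%), Aqp8 (35.6% and 38.8%) and Aqp1 (18.8% and 14.9%).

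In kidney Aqp1 led, ahead of Aqp2 and Aqp3, and the 2 kidney libraries differed in the mixture. Aqp1 held 66.8% in frozen and 48.5% in FFPE kidney, Aqp2 15.6% and 26.4%, Aqp3 10.9% and 12.1%, and Aqp4 1.01% and 6.56%. Aqp6 and Aqp7 each held 2.26% to 3.44% there. Summed over the 9 genes, the level per length (scaled to the same total over all genes in each library) was 333 in frozen and 396 in FFPE kidney and 246 and 198 in liver. It was lower in heart (58.0 and 135) and brain (24.3 and 53.8).

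**Figure D1:**
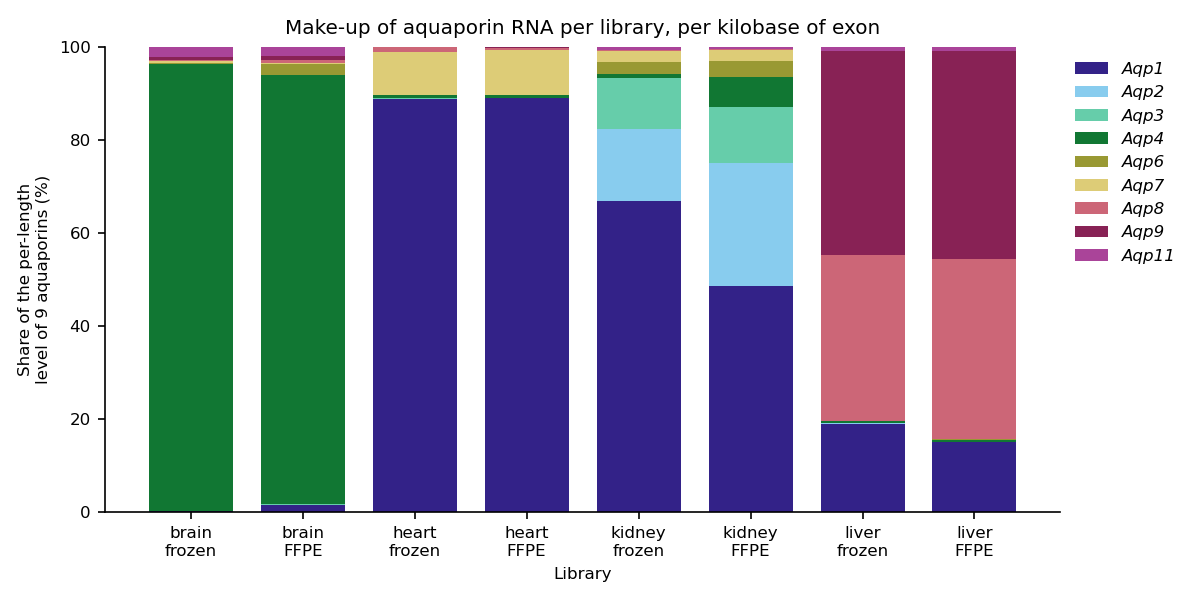
Share of each aquaporin in the summed per-length level of the 9 genes (vertical axis, percent) in each of 8 libraries (horizontal axis), stacked by gene. Aqp4 fills more than 92% of both brain bars, Aqp1 about 89% of both heart bars, and the kidney bars differ in Aqp1 (66.8% against 48.5%) and Aqp4 (1.01% against 6.56%).

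All 9 genes passed the filter for testing, a level above 1 CPM in at least 2 libraries. Aqp2, Aqp3 and Aqp6 passed it through kidney alone and Aqp9 through liver alone, so a difference of these genes from the other organs was bound to be seen. The same holds for Aqp8 in liver. Outside liver it was above 1 CPM only in frozen heart (1.07 CPM), so it would not have passed without liver. The test was limma with terms for organ and preparation, so an organ rests on 2 libraries that differ in preparation, and p-values were adjusted by Benjamini-Hochberg over 15819 genes. In kidney 7 of the 9 were higher than the mean of the other 3 organs and 2 were lower, where 20.3% of all genes tested were called higher and 19.9% lower. In brain 1 was higher and 6 were lower (34.7% and 31.6% of all genes). In heart 2 were higher and 6 lower (21.5% and 28.7%). In liver 3 were higher and 3 lower (27.3% and 35.2%). The median difference over the 9 genes was 4.29 log2 units in kidney, where all genes tested had −0.04, and −3.78, −2.47 and −1.30 in brain, heart and liver. The brain count of 7 fell without the frozen brain library, and the heart count of 8 fell without frozen or FFPE heart. Each of these fits leaves 1 library of that organ, and calls over all genes fell in them too. The lost calls were all of genes called lower, with at most 10 reads in either library of that organ (Aqp2, Aqp3 and Aqp9 in brain, and Aqp2, Aqp3 and Aqp6 in heart, with Aqp9 also without frozen heart). The kidney count of 9 fell without frozen kidney (Aqp8 and Aqp11 lost) and without FFPE kidney (Aqp4 and Aqp8 lost), as did calls over all genes. Lower calls of Aqp3 in heart were also lost without either kidney library or frozen liver, and in liver without frozen heart, FFPE kidney or FFPE liver. Those of Aqp9 in brain and heart were also lost without frozen liver.

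**Figure D2:**
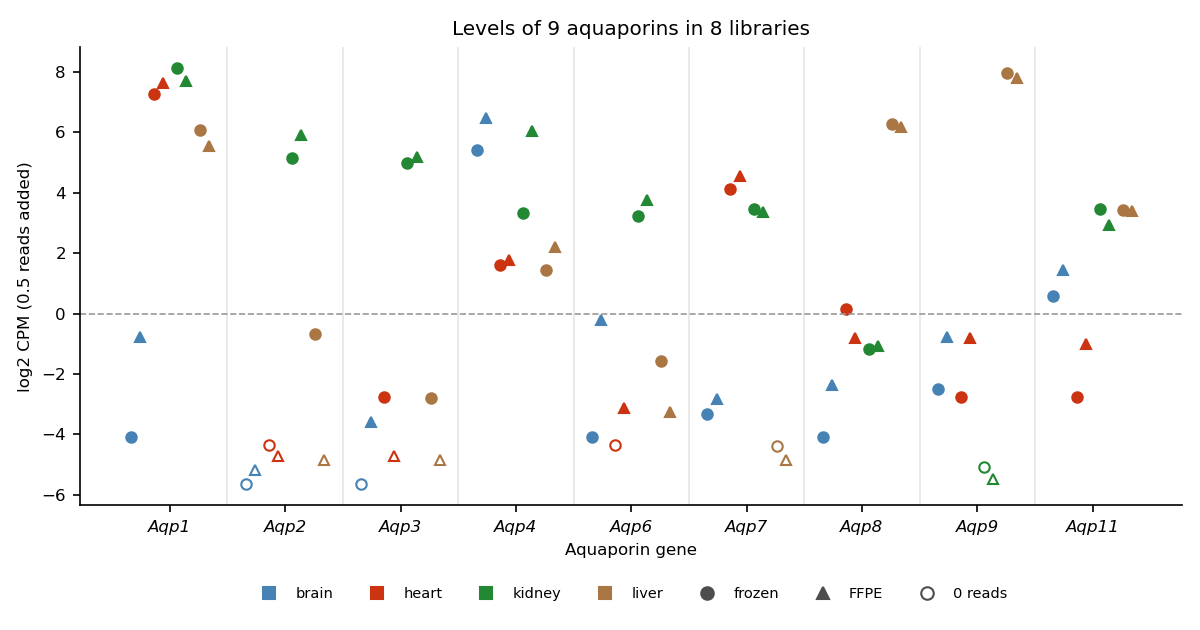
Log2 CPM, with 0.5 reads added (vertical axis), of 9 aquaporins (horizontal axis) in each library, by organ (colour) and preparation (circle frozen, triangle FFPE), and open where the library had 0 reads. The dashed line is 1 CPM, and Aqp2, Aqp3 and Aqp6 lie above it in kidney alone, Aqp9 in liver alone.

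Of the water channels, Aqp1 was the most abundant transcript of the family in both heart and kidney libraries. Its level was 280 CPM in frozen and 206 CPM in FFPE kidney, 155 and 199 CPM in heart, and 67.4 and 46.4 CPM in liver. In brain it had 1 read (0.0397 CPM) in the frozen and 10 reads (0.558 CPM) in the FFPE library. All 6 libraries of the other organs thus lay far above both brain libraries. The difference of brain from the other 3 was −9.48 ± 0.64 log2 units (SE, limma adjusted p = 4.89e-06). Kidney was higher than the other 3 by 4.29 ± 0.64 (limma adjusted p = 0.000923) and heart by 3.69 ± 0.64 (limma adjusted p = 0.00158). In the order kidney, heart, liver and brain, kidney and heart did not differ beyond their spread (0.45 ± 0.78, limma adjusted p = 0.677), nor did heart and liver (1.65 ± 0.78, limma adjusted p = 0.108).

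AQP1 is known from capillary endothelium and red cells as well as from kidney tubules, and markers of these cells were read beside it. All 13 endothelial genes tested were higher in heart than the mean of the other 3 organs (median 2.34 log2 units, beside −0.19 over all genes tested). Of all genes tested, 21.5% were called higher in heart. In both preparations 12 of the 13 had their highest CPM of the 4 organs in heart. The exception was Emcn, with 23.8 and 19.1 CPM in frozen and FFPE heart and 26.0 and 29.5 CPM in kidney. The largest differences were those of Vwf (3.72 ± 0.32), Cdh5 (3.15 ± 0.14) and Tie1 (2.91 ± 0.16). The summed level of the 13 was 1088 and 1039 CPM in frozen and FFPE heart, 404 and 344 CPM in kidney, 255 and 214 CPM in liver and 111 and 110 CPM in brain. The 8 measured red cell genes summed to 2127 and 1908 CPM in heart and to at most 226 CPM in any other library. The brain libraries thus had about 110 CPM of endothelial markers and 10 reads of Aqp1 or fewer. How far these cells account for the Aqp1 level of an organ was not tested.

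Aqp2, the vasopressin-regulated apical channel of principal cells, was a kidney transcript. It had 606 reads (35.5 CPM) in frozen and 1337 reads (60.6 CPM) in FFPE kidney, 6 reads (0.576 CPM) in frozen liver, and 0 reads in the other 5 libraries. Against brain this is at least 298-fold higher in frozen and 362-fold in FFPE tissue, and against heart at least 121-fold and 266-fold, taking 3 reads per library as the floor. The fitted difference of kidney from the other 3 organs was 9.78 ± 0.96 log2 units (limma adjusted p = 0.000106), a value that depends on the 0.5 reads added where a library had none.

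Aqp6, a channel of vesicles in acid-secreting intercalated cells that conducts anions, was 9.31 CPM (159 reads) in frozen and 13.5 CPM (297 reads) in FFPE kidney. The next highest library was FFPE brain with 15 reads (0.838 CPM), and the other 5 libraries had 0 to 3 reads. Kidney was higher than the other 3 by 6.26 ± 0.94 log2 units (limma adjusted p = 0.001). Brain, liver and heart, in that order, could not be separated (limma adjusted p = 0.841 for brain against liver and 0.368 for liver against heart).

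Aqp3, the aquaglyceroporin of the basolateral membrane of principal cells, had 542 reads (31.7 CPM) in frozen and 791 reads (35.8 CPM) in FFPE kidney. It had 1 read or none in each of the other 6 libraries. Kidney was higher by 9.14 ± 0.87 log2 units (limma adjusted p = 9e-05). Aqp2 and Aqp3 thus shared their organ, and per length Aqp2 was the more abundant of the pair in both kidney libraries (52.1 against 36.2 in frozen and 105 against 48.0 in FFPE tissue).

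Aqp4, the astrocyte endfoot channel, was read in every library and was led by brain, but not by brain alone. It had 42.8 CPM (1080 reads) in frozen and 88.3 CPM (1581 reads) in FFPE brain. Kidney had 10.1 CPM (172 reads) in frozen and 66.1 CPM (1459 reads) in FFPE tissue, so that FFPE kidney lay above frozen brain. Heart had 3.02 and 3.34 CPM and liver 2.69 and 4.62 CPM. Brain was higher than the other 3 by 3.21 ± 0.41 log2 units (limma adjusted p = 0.000165), and heart and liver differed from the others by −2.47 and −2.27.

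Kidney was also higher in Aqp4 than the other 3 organs, by 1.54 ± 0.41 (limma adjusted p = 0.0174). That call rested on FFPE kidney: without that library the difference was 0.51 (limma adjusted p = 0.339). It was also lost without frozen brain (limma adjusted p = 0.0505), without FFPE brain (0.0546) and with no mean-variance trend (0.0761). Brain and kidney did not differ beyond their spread (1.25 ± 0.51, limma adjusted p = 0.063).

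Genes that anchor or accompany AQP4 at the endfoot were divided between brain and other organs. Of 14 listed, all measured, 10 were higher and 4 lower in brain than the mean of the other 3 organs, with a median of 1.58 log2 units beside 0.05 over all genes tested. Of all genes tested, 34.7% were called higher and 31.6% lower in brain. In both preparations 6 of the 14 had their highest CPM in brain. Among the genes called higher, the gap junction gene Gja1 (104 and 81.1 CPM in frozen and FFPE brain, 363 and 242 CPM in heart) and the dystrophin gene Dmd (86.5 and 105 CPM in brain, 271 and 360 CPM in heart) had more in heart. The chloride channel gene Clcn2 had more in liver, and the FFPE libraries had slightly more Agrn in kidney than in brain. The 14 genes summed to 728 and 648 CPM in brain and to 887 and 950 CPM in heart. The largest differences were those of Mlc1 (9.44 ± 0.78), the connexin gene Gjb6 (8.49 ± 0.74) and the adhesion gene Hepacam (8.40 ± 0.69). These 3 had 0 reads in frozen kidney and 1, 3 and 3 reads in FFPE kidney, where Aqp4 had 1459. Other parts of the list, such as the calcium channel gene Trpv4 (−2.21 ± 0.38), were lower in brain. Aqp4 lies at chr18:15389496-15410982 on the minus strand.

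Aqp8, a channel of hepatocyte and other epithelial membranes, was a liver transcript, with 76.6 CPM (798 reads) in frozen and 72.7 CPM (1055 reads) in FFPE liver. Heart had 11 and 7 reads, kidney 7 and 10, and brain 1 and 3, which come to 0.0397 to 1.07 CPM. Liver was higher than the other 3 by 7.78 ± 0.55 log2 units (limma adjusted p = 5.75e-06). Heart and kidney did not differ beyond their spread (0.80 ± 0.67, limma adjusted p = 0.379), and kidney lay above brain by 2.08 ± 0.67 (limma adjusted p = 0.0265).

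Among the aquaglyceroporins, Aqp9 was the most abundant aquaporin of liver, with 248 CPM (2584 reads) in frozen and 220 CPM (3193 reads) in FFPE tissue. Kidney had 0 reads in both libraries, which makes liver at least 1413-fold and 1618-fold higher. Brain had 4 and 10 reads and heart 1 and 7. The liver difference was 10.77 ± 0.61 log2 units (limma adjusted p = 1.79e-06). Kidney and liver, which both make glucose from glycerol, thus differed in which aquaglyceroporin they held, with Aqp9 in liver and Aqp3 and Aqp7 in kidney.

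Aqp7, which passes glycerol in adipocytes, heart muscle and the straight proximal tubule, was found in heart and kidney. It had 17.3 CPM (178 reads) and 23.4 CPM (309 reads) in frozen and FFPE heart and 10.9 CPM (187 reads) and 10.3 CPM (228 reads) in kidney. Brain had 2 reads in each library and liver 0 in both. Heart was at least 60.2-fold and 113-fold above liver, and kidney at least 38.0-fold and 50.0-fold. Heart was higher than the other 3 organs by 5.77 ± 0.44 log2 units (limma adjusted p = 1.72e-05) and kidney by 4.54 ± 0.44 (limma adjusted p = 0.000104). Heart and kidney did not differ beyond their spread (0.92 ± 0.54, limma adjusted p = 0.214). Fat cell markers summed to 284 and 146 CPM in frozen and FFPE heart, where 3 and 8 of the 10 had reads, and to 19.1 and 61.0 CPM in kidney. Of all 27179 genes, 16098 had reads in frozen and 18140 in FFPE heart. Nearly all of the heart sums was Fabp4, a fatty acid binding protein gene that capillary endothelium also makes, with 2841 and 1807 reads. Adipoq, Cidec and Lep had 0 reads in frozen heart and 1 to 3 each in FFPE heart. Plin1, a lipid droplet gene of fat cells, had 0 reads in both heart libraries and in frozen kidney, and 45 reads in FFPE kidney. The part of fat cells in the Aqp7 level was not tested.

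Of 14 measured genes of glycerol handling, which link glycerol release to glucose and fat synthesis, 8 were higher in liver than the mean of the other 3 organs and 1 lower (median 0.81 log2 units, beside −0.13 over all genes tested). Of all genes tested, 27.3% were called higher and 35.2% lower in liver. The largest differences were those of Pck1 (9.86 ± 0.90), G6pc (8.83 ± 0.66) and Fbp1 (8.45 ± 0.46), enzymes of gluconeogenesis, a pathway that kidney also runs. In both preparations 6 of the 14 had their highest CPM in liver, these 3 among them. Glycerol kinase Gk, which traps glycerol in the cell, was higher in liver than the mean of the other 3 organs by 1.16 ± 0.16 (limma adjusted p = 0.000361), but kidney had the most of it. Gk had 341 and 328 CPM in frozen and FFPE kidney, 90.4 and 121 CPM in liver, and 26.8 CPM or less in brain and heart. Lpl, which releases fatty acids from circulating fat, was lower (−3.16 ± 0.19). The kidney libraries, where Aqp9 had no read, had 4116 and 3671 reads of G6pc.

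Aqp11, a channel of the endoplasmic reticulum whose loss is known to give kidney cysts in mice, was level between kidney and liver. It had 11.1 and 7.57 CPM in frozen and FFPE kidney, 10.8 and 10.5 CPM in liver, 1.47 and 2.68 CPM in brain, and 1 and 6 reads in heart. Kidney was higher than the other 3 by 2.36 ± 0.46 log2 units (limma adjusted p = 0.00393, and 0.12 without frozen kidney) and liver by 2.64 ± 0.46 (limma adjusted p = 0.00117). The difference of heart was −4.44 ± 0.46 (limma adjusted p = 9.25e-05). Liver and kidney did not differ beyond their spread (0.22 ± 0.56, limma adjusted p = 0.794). The annotated exons of this gene, merged over all its transcripts, come to 9418 bases, which can exceed the length of a single mRNA. On that length its per-length level was 2.45 or less in every library.

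**Figure D3:**
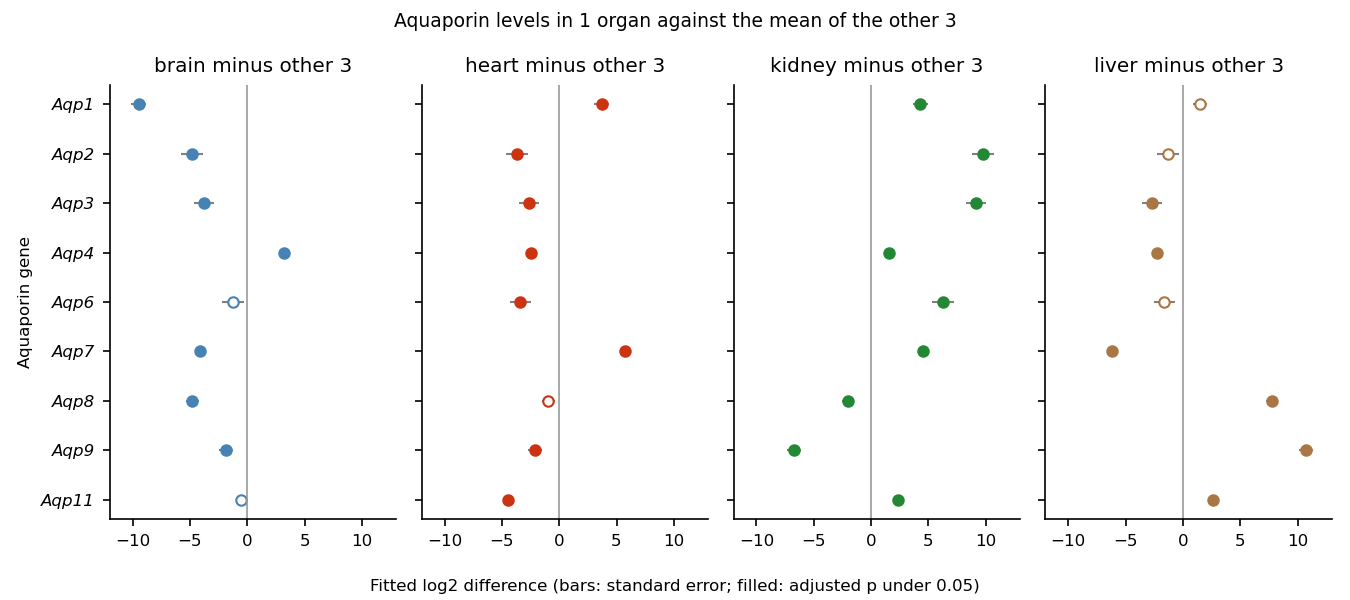
Fitted log2 difference of each organ from the mean of the other 3 (horizontal axis, with standard errors) for 9 aquaporins (vertical axis), filled where limma's adjusted p was under 0.05. Kidney has 7 filled points to the right of 0, brain only Aqp4, heart Aqp1 and Aqp7, and liver Aqp8, Aqp9 and Aqp11.

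Members called different were also counted for each pair of organs. Brain and kidney differed in 8 of the 9 (56.6% of all genes were called), kidney and liver in 7 (41.2%), heart and kidney in 6 (40.9%), and brain and liver in 6 (67.1%). Brain and heart differed in 5 (58%) and heart and liver in 4 (53.1%). With 9 genes, the counts for brain against liver, brain against heart and heart against liver were near the share over all genes. They show nothing particular to the family. Ordering the organs by level gave 27 neighbouring pairs over the 9 genes, of which 13 differed beyond their spread. Most of the gaps that did not lay between organs with a handful of reads, apart from the pairs named above for Aqp1, Aqp4, Aqp7 and Aqp11 and from liver against heart for Aqp4 (limma adjusted p = 0.836). Some gaps that were called also lay between such organs, and their size depends on the 0.5 reads added. These were Aqp7 in brain (2 and 2 reads) over liver (0 and 0), Aqp9 in heart (1 and 7) over kidney (0 and 0) and Aqp8 in kidney (7 and 10) over brain (1 and 3).

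The kidney aquaporins were set beside genes of the cells and pathways they belong to. All 7 principal cell genes (aquaporins left out) were higher in kidney, with a median of 7.30 log2 units, led by Hsd11b2 (9.45 ± 0.66), which shields the aldosterone receptor from glucocorticoid, and the sodium channel subunits Scnn1g (8.03 ± 0.93) and Scnn1b (7.82 ± 1.01). All 13 intercalated cell genes were higher too (median 7.13), led by the proton pump subunits Atp6v1b1 (9.47 ± 0.68) and Atp6v0a4 (9.14 ± 0.66) and the ammonia channel Rhcg (8.82 ± 0.63). Of all genes tested, 20.3% were called higher and 19.9% lower in kidney. Apart from Npnt, the principal cell genes were above 1 CPM in kidney alone, as were most intercalated cell genes, Atp6v1b1, Atp6v0a4 and Rhcg among them. Such genes passed the filter through kidney, so their calls were bound to be seen. Of 18 genes of the vasopressin response, 8 were higher and 5 lower in kidney than the mean of the other 3 organs (median 0.40, beside −0.04 over all genes tested), and 5 had their highest CPM in kidney in both preparations. The largest differences were those of the vasopressin receptor Avpr2 (7.30 ± 0.73), the prostaglandin receptor Ptger3 (5.56 ± 0.69) and the apical sorting gene Mal (3.49 ± 0.35). Mal was also a brain transcript, with 124 and 79.4 CPM in frozen and FFPE brain and 59.8 and 89.4 CPM in kidney. The kinase subunit Prkaca (−1.07 ± 0.15), which is made in most cells, was among the lower ones. Of 7 genes of urea and osmolyte handling, 5 were higher and 0 lower (median 1.44), and 4 had their highest CPM in kidney in both preparations, among them the urea transporter Slc14a2 (8.05 ± 0.78) and the inositol transporter Slc5a3 (3.34 ± 0.20). The urea transporter Slc14a1 was called higher against the mean of the other 3 (2.01 ± 0.67), but brain had more of it, with 7.38 and 6.25 CPM in frozen and FFPE brain and 1.64 and 4.17 CPM in kidney.

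FFPE and frozen tissue were compared over the 4 organs, with organ as a block. None of the 9 aquaporins passed the test (limma adjusted p under 0.05), and 3.38% of all genes did. Aqp4 alone had an unadjusted p under 0.05 (0.0109), with 1.16 ± 0.36 log2 units more in FFPE tissue (limma adjusted p = 0.114) and higher values in 4 of 4 organs. It was called with CPM without the authors' scaling factors (limma adjusted p = 0.00826) and with limma's voom on the recovered reads (limma adjusted p = 0.0162). Without the factors 3652 of all 15819 genes tested were called higher in FFPE tissue and 73 lower, with a median difference of 0.54 log2 units. With voom 572 genes were called higher and 835 lower. Over all 16 alternatives the adjusted p of Aqp4 ran from 0.00826 to 0.31. The sign of 7 of the 9 differences changed in some alternative, and those of Aqp4 and Aqp6 were positive in all.

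Within an organ there was 1 library of each kind, so these ratios have no replicate check and their 95% intervals (exact Clopper-Pearson on the reads) cover counting error only. Aqp4 in kidney had the widest gap among members with at least 20 reads in the 2 libraries of an organ. FFPE kidney was 6.57-fold above frozen kidney (interval 5.60 to 7.74). Among the 15819 genes tested, 386 differed upward by at least as much in kidney, where the median gene differed by 0.06 log2 units with an SD over genes of 0.92. Aqp4 was also higher in FFPE brain (2.06-fold, 1.91 to 2.23) and FFPE liver (1.72-fold, 1.09 to 2.77), and in heart the interval included no difference (1.10-fold, 0.682 to 1.81).

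The other kidney members differed less and in both directions. Aqp2 was 1.71-fold higher in FFPE kidney (1.55 to 1.88), Aqp6 1.45-fold (1.19 to 1.76) and Aqp3 1.13-fold (1.01 to 1.26). Aqp1 stood at 0.736 of its frozen level (0.706 to 0.766) and Aqp11 at 0.684 (0.552 to 0.847), and the interval of Aqp7 included no difference (0.944, 0.775 to 1.15). Without the scaling factors all kidney ratios move up by 0.63 log2 units, and those of Aqp1 and Aqp11 then turn to 0.19 and 0.09 above frozen, where the median of all genes is 0.70. The 4 genes of the collecting duct (Aqp4, Aqp2, Aqp6 and Aqp3) thus had the highest ratios of these 7, with the intervals of Aqp3 and Aqp7 overlapping, and Aqp11 and Aqp1 the lowest.

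Lists of other kidney genes also differed between these 2 libraries, and not all distal genes were higher in FFPE tissue. All 7 urea and osmolyte genes were higher in FFPE kidney (median 1.18 log2 units), among them Slc14a2 (316 reads in frozen and 1251 in FFPE kidney), Akr1b3 (130 and 580), which makes sorbitol, and Nfat5 (1689 and 4933), the transcription factor of the response to high osmolality. Of the principal cell genes 6 of 7 and of the intercalated cell genes 11 of 13 were higher in FFPE kidney (medians 0.35 and 0.21), and their summed levels went from 159 to 217 CPM and from 525 to 644 CPM. Of the 12 proximal tubule genes 1 was higher (median −0.66), and their sum went from 13575 to 9044 CPM. Of the 7 genes of the loop of Henle and distal tubule 3 were higher (median −0.25), from −0.88 for Umod, a gene of the thick ascending limb, to 0.28 for Pvalb, and their sum went from 2435 to 1891 CPM. Without the scaling factors each of these log2 values, too, moves up by 0.63, so that the loop and distal median turns positive. Markers of tissue around the kidney differed as well. Of all 27179 genes, 17129 had reads in frozen and 20349 in FFPE kidney. Of the 10 fat cell markers 6 had reads in frozen and 10 in FFPE kidney, with Ucp1, the brown fat gene, at 0 and 144 reads. All 7 urothelial markers had reads in both libraries and summed to 2.93 and 10.4 CPM. Of the 7 adrenal markers 1 had reads in frozen and 7 in FFPE kidney, with sums of 0.293 and 4.58 CPM. Whether the 2 kidney samples held different shares of medulla or of such tissue, and its part in the Aqp4 and Aqp2 ratios, was not tested.

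**Figure D4:**
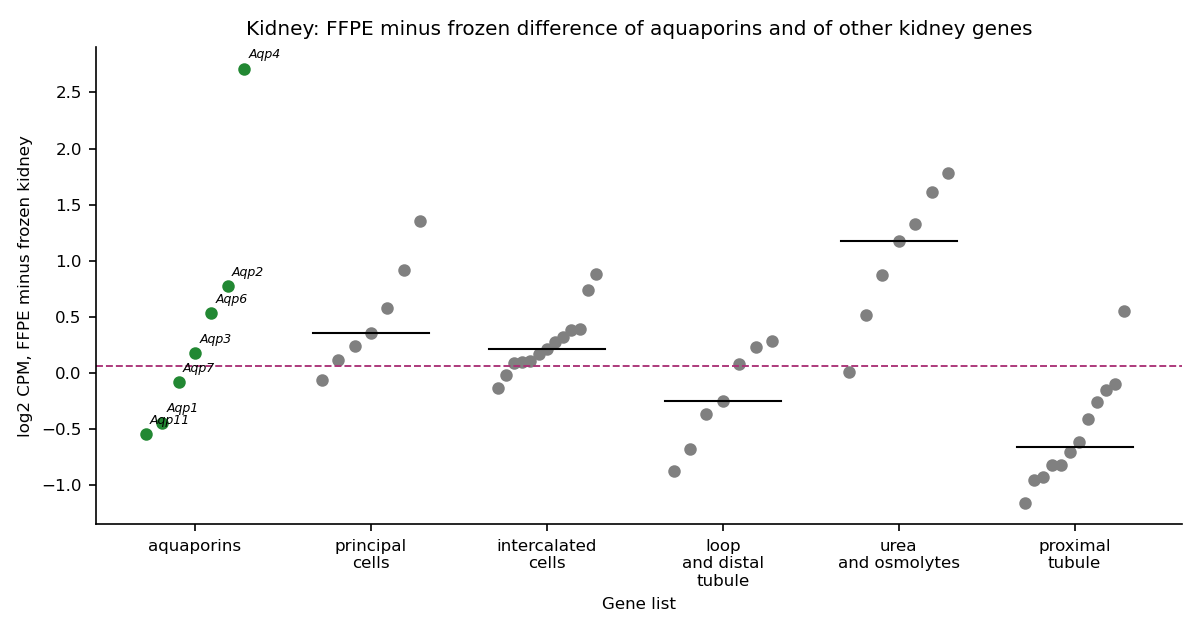
Log2 CPM in FFPE minus frozen kidney (vertical axis) of the 7 aquaporins with at least 20 reads in the 2 libraries (green) and of 5 lists of other kidney genes (grey, with the list median as a black bar); the dashed line is the median of all genes tested (0.06). Aqp4 lies above every gene of the 5 lists, Aqp2 (0.77) lies above every proximal tubule gene, and the other 5 aquaporins lie within the proximal tubule range (−1.16 to 0.55).

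In heart, Aqp1 and Aqp7 were both somewhat higher in FFPE tissue, by 1.29-fold (1.21 to 1.37) and 1.35-fold (1.12 to 1.63). In liver, Aqp8 and Aqp9 stayed close to their frozen levels, at 0.949 (0.865 to 1.04) and 0.887 (0.842 to 0.934), and the Aqp9 ratio turns to 0.12 log2 units above frozen without the scaling factors. Aqp1 was at 0.689 (0.619 to 0.767) of its frozen level in liver. Aqp11 in liver had an interval that included no difference (0.974, 0.758 to 1.25).

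In brain, 4 members other than Aqp4 had more reads in FFPE than in frozen tissue beyond counting error. Of all 27179 genes, 18722 had reads in frozen and 21002 in FFPE brain. Aqp11 went from 37 to 48 reads, a CPM ratio of 1.83 (1.17 to 2.89). Aqp6 went from 1 to 15 reads, Aqp1 from 1 to 10 and Aqp9 from 4 to 10, with intervals of 3.25 to 889, 2.0 to 611 and 1.02 to 15.4 for the ratio. AQP1 is known from the apical membrane of the choroid plexus. Of 11 choroid plexus markers 10 had reads in frozen and 11 in FFPE brain, and they summed to 39.1 and 98.3 CPM, with Ttr at 40 and 1126 reads. Without Ttr the sum was 37.5 CPM in frozen and 35.4 CPM in FFPE brain. Of the 11 markers 8 were higher in FFPE brain, Kcne2 (0 and 31 reads) and Slc4a5 (2 and 38) among them, and 3 were lower, namely Prlr (592 and 153), Clic6 (230 and 89) and Calml4 (6 and 4). Of 9 cerebellar markers 7 and 9 had reads, with sums of 149 and 424 CPM and Gabra6, a granule cell receptor gene, at 0 and 742 reads. The part of these in the brain aquaporin ratios was not tested.

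**Figure D5:**
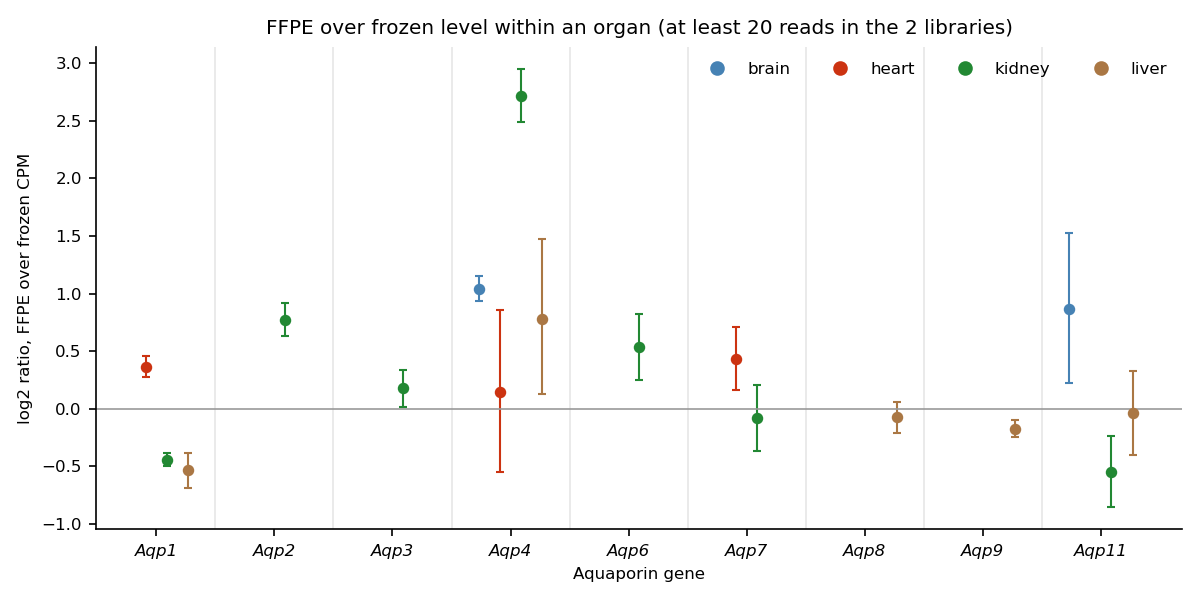
Log2 ratio of FFPE over frozen CPM (vertical axis) for each aquaporin (horizontal axis) within an organ (colour), for the 17 pairs of libraries with at least 20 reads, with 95% counting intervals and 1 library of each kind. Aqp4 in kidney stands at 2.72, and the other 16 points lie between −0.55 and 1.04.

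The 6 reads of Aqp2 in frozen liver were 1.62% of its frozen kidney level (interval 0.594 to 3.56%). Abundant genes of other kidney segments were lower there in relation to kidney: Kap, a proximal tubule gene, at 0.0811% (0.0571 to 0.112%), Slc34a1 at 0.119%, Umod at 0.144% and Slc12a1 at 0.324% (0.208 to 0.483%). The principal cell genes Scnn1b, Scnn1g, Hsd11b2, Fxyd4 and Avpr2 had 0 reads in frozen liver. This allows up to 1.04% of the kidney level for Hsd11b2, 2.77% for Scnn1g, 3.10% for Scnn1b, 6.29% for Avpr2 and 9.43% for Fxyd4. Only the limit of Hsd11b2 lies below the 1.62% of Aqp2, and it is within the Aqp2 interval. Other principal cell genes had reads in frozen liver, namely Gata3 (2 reads, 3.28%) and Npnt (10 reads). Aqp6 had 3 reads there (3.10%) and Aqp3 had 1 (0.303%). FFPE liver had 0 reads of Aqp2, which allows up to 0.420%. The source of these reads was not tested.

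For each member the 3 genes with the most similar profile were those with the smallest root mean square difference of log2 values over the 8 libraries, each gene centred on its own mean, among 14767 genes. As the 8 values mostly record 4 organs, these are descriptions. Nearest to Aqp1 were Btnl9 (1.27), Tcf21 (1.31) and Cd300lg (1.41). Nearest to Aqp2 were Tmigd1 (0.82), the proton pump subunit gene Atp6v1g3 (0.90) and Clrn3 (0.95), and to Aqp3 C1qtnf3 (0.61), Clrn3 (0.67) and Slc22a22 (0.70). Clrn3 stood in both lists. Aqp6 was nearest to Tnn (0.64), Prom2 (0.74) and Hoxd3 (0.77).

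The profile of Aqp4 was nearest to Eml5 (0.63), Erich6 (0.70) and Pde1a (0.73). Aqp7 was nearest to Fbxo40 (1.04), Fbp2 (1.13), which encodes the muscle fructose bisphosphatase, and Trabd2b (1.14). In liver, Aqp8 was nearest to the nuclear receptor gene Nr5a2 (0.42), Tm4sf4 (0.68) and Nnmt (0.79), and Aqp9 to Mbl2 (0.77), Serpind1 (0.84) and Hc (0.88), which encode secreted plasma proteins. Aqp11 was nearest to Thpo (0.43), Ripk4 (0.48) and Slc46a1 (0.53). The closest match of all was that of Aqp8 with Nr5a2, and Aqp1 and Aqp7 had no gene within 1 log2 unit.

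The 3 other aquaporin genes of the table had next to no reads. Aqp5, a channel of glands and lung, had 10 reads in FFPE kidney, 0 in frozen kidney and 0 or 1 elsewhere. Mip, the channel of the lens, had 3 reads in FFPE brain, 2 in FFPE kidney, 1 in FFPE liver and 0 in the other 5 libraries. Aqp12, a channel of the exocrine pancreas, had 0 reads in all 8. None reached 1 CPM in any library, and none was tested.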

How the data were processed

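Total RNA was sequenced in 8 mouse libraries, 1 frozen and 1 FFPE from each of 4 organs, grouped by the tissue and treatment labels. The submitters' processing notes name HISAT2, featureCounts, limma and genome mm10 but no version. Annotation, strand setting and scaling method: not given in the sources used here. A single table was deposited by the authors, with log2 values that are log2 CPM with 0.5 reads added, on library sizes multiplied by scaling factors of 0.500 to 1.76, as worked out from the values. Each column gave back whole reads for 100% of its values, within 1e-06.

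The fit was limma 3.58.1 in R 4.3.3 (mean-variance trend, organ and preparation as terms, residual degrees of freedom 3, prior 5.35) on 15819 genes above 1 CPM in at least 2 libraries. A call needed a Benjamini-Hochberg adjusted p under 0.05. The fit was also run on data simulated from its own model and spreads, which cannot show how well that model suits these libraries. With 1 library per organ and preparation, p-values measure the spread between these libraries. Levels per length used GENCODE M21 exon lengths, found for 25218 genes (92.8%). These lengths merge the exons of all annotated transcripts of a gene, so they can exceed the length of its mRNA. RefSeq promoters were taken for 8 members and not for Aqp4. Of each list the 3 genes with the largest difference were to be named, and others named were chosen after their values were seen. The members and lists were chosen with earlier results of these data known. With no molecular identifiers given, reads may not be independent molecules. Alternatives were other filters, scalings, pseudocounts and variance models, and leaving out each library.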

Additional observations from a re-analysis of the deposited data

Results flagged for a closer look

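For 4 aquaporins the FFPE over frozen ratio was above 1 in some organs and below 1 in others, beyond counting error in each. With 1 library of each kind per organ the difference between organs was not tested, and these log2 ratios of CPM are on the authors' scaled library sizes. Aqp1 had 3.82 in brain (1 and 10 reads) and 0.36 in heart, against −0.44 in kidney and −0.54 in liver. Aqp2 had 0.77 in kidney against −4.18 in liver, a value that rests on 6 reads in frozen and 0 in FFPE liver with 0.5 reads added. Aqp9 had 1.82 in brain (4 and 10 reads) against −0.17 in liver, and Aqp11 had 0.87 in brain against −0.55 in kidney. Without the scaling factors, Aqp1 and Aqp11 in kidney and Aqp9 in liver turned positive.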

How the results depend on the processing

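Of 268 organ differences recomputed with another filter, scaling, pseudocount or variance model, 254 kept their direction and side of the threshold, as did 253 of 288 with a library left out. With a filter of 1 CPM in at least 4 libraries 4 aquaporins remained to be tested, and the calls were 3 in brain, 4 in heart, 4 in kidney and 3 in liver against the other organs. They were 3 for brain against kidney, and 2 each for heart against kidney, heart against liver and kidney against liver. With a library left out, the calls ranged from 4 to 8 in brain and from 4 to 9 in heart. For FFPE against frozen 1 aquaporin (Aqp4) was called without scaling factors, and 1 with voom, an alternative chosen after seeing the data. Of all 15819 genes, 3652 were called higher and 73 lower without the factors, and 572 and 835 with voom.

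Among the differences fitted with limma, directions turned only for those that were not called. Against the other organs, Aqp11 in brain was 0.37 without scaling factors. With a library left out, Aqp6 in brain ranged from −3.17 to 0.68, and in liver Aqp2 from −3.54 to 0.94 and Aqp6 from −3.41 to 0.16. For FFPE against frozen, voom gave Aqp1 −0.15, Aqp2 0.61, Aqp3 0.12, Aqp8 −0.064, Aqp9 −0.054 and Aqp11 −0.075. With log2(CPM + 1) Aqp1 was −0.0059, Aqp2 0.025 and Aqp8 −0.075. Quantile normalization gave Aqp7 −0.00045 and Aqp8 −0.41, and Aqp3 was 0.033 without scaling factors. With a library left out the differences ranged from −0.21 to 1.07 for Aqp1, from −1.35 to 0.30 for Aqp2, from −1.28 to 0.10 for Aqp3, from −0.043 to 0.28 for Aqp7 and from −0.31 to 0.59 for Aqp8. Within kidney and liver, some FFPE minus frozen values that lay beyond counting error also turned without scaling factors. These were Aqp1 (0.19) and Aqp11 (0.086) in kidney and Aqp9 in liver (0.12). Leaving out the factors moved the median of all genes by 0.23 to 0.74 log2 units.

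Count tests were planned and not run, as the deposited unit is log2, and limma's voom on the recovered reads was run in their place. No paired analysis by replicate number was possible because each group holds 1 library. The FFPE comparison has the organ as its block. Members with under 20 reads in an organ carry little precision there. The cause of each change was not tested.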
